A study of Homo sapiens with 12 samples.

Results

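The genes described here encode the machinery that releases RNA polymerase II into productive elongation. They are HEXIM1, the cyclin T genes CCNT1 and CCNT2, the 7SK particle genes LARP7 and MEPCE, and the super elongation complex genes AFF4 and ELL2. They were chosen by gene symbol, as 8 listed genes of which 7 had a probe set that carries a single symbol, out of 14232 genes measured in that way. The kinase gene CDK9 was the exception, because its probe set also carries the symbol of a microRNA, and it is not analysed here. Each of the 7 genes had 1 probe set, so no choice between probe sets was needed.

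Positive transcription elongation factor b (P-TEFb) is a kinase made of CDK9 and a T-type cyclin. It phosphorylates the pausing factors DSIF and NELF and the tail of RNA polymerase II, which lets a paused polymerase move on. Much of the cell's P-TEFb is held inactive by HEXIM1 on the 7SK small nuclear RNA, which MEPCE caps and LARP7 stabilises. Drugs that stall transcription are known to free P-TEFb from this particle. HEXIM1 transcription has been used as a readout of P-TEFb activity, but that activity was not measured here. AFF4 is the scaffold on which active P-TEFb joins ELL2, an elongation factor.

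The cells were CCRF-CEM, a human T-lymphoblastic leukaemia line, and all arrays come from this 1 line, with 3 arrays labelled as biological replicates in each of 4 groups. Control cultures received no treatment, and the labels name no solvent control. The treated cultures were exposed for 3 h, each at 5 times the compound's IC50. The dose of AB61 was 250 nM, that of tubercidin 550 nM and that of actinomycin D 1 nM. AB61 and tubercidin are adenosine analogues that share a 7-deazaadenine base, and AB61 differs from tubercidin by a 2-thienyl group at position 7. Actinomycin D is an unrelated peptide antibiotic that binds DNA and can block transcription. How far the 1 nM dose blocked transcription in these cultures was not measured. Values are log2 levels from whole-transcript arrays, on which 1 unit is a doubling, and differences between groups are log2 fold changes. Because the arrays were scaled to a common distribution, a loss of RNA shared by all genes cannot be seen, and fewer expressing cells cannot be told apart from less RNA per cell.

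The 12 arrays resembled each other closely, with pairwise correlations from 0.983 to 0.996. All 8 T lineage genes checked (CD3D, CD3E, CD3G, CD7, CD5, CD2, PTPRC and LCK) lay at or above percentile 84.1 of all genes in the control arrays. The other lineages lay at percentile 64.9 or lower, except the keratin gene KRT8 at percentile 94.4. These percentiles compare different probes and are only a coarse check of the label.

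The promoters of HEXIM1, CCNT1 and CCNT2 are shown because the first pair of genes moved together in the results and the paralogue CCNT2 did not pass in any comparison. Each runs from 250 bases before the transcription start to 50 bases from the start on, in RefSeq's annotation of GRCh38.p14, and is printed 5′ to 3′ on the gene's own strand. Capitals mark matches, on either strand, to 7 searched motifs. These were the TATA box TATAAA, the CCAAT box CCAAT, the GC box GGGCGG, the E box CACGTG, the ETS core CCGGAAG, the cAMP response element TGACGTCA and the AP-1 site TGACTCA. The windows are chr17:45148225-45148524 on the plus strand for HEXIM1, chr12:48716658-48716957 on the minus strand for CCNT1 and chr2:134918572-134918871 on the plus strand for CCNT2.
HEXIM1: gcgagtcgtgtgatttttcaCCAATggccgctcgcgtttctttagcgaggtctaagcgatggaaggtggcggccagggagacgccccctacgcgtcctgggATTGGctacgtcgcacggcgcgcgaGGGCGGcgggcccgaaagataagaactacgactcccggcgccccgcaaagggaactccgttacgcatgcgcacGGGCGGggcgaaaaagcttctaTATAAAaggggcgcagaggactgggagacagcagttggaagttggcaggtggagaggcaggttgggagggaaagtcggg
CCNT1: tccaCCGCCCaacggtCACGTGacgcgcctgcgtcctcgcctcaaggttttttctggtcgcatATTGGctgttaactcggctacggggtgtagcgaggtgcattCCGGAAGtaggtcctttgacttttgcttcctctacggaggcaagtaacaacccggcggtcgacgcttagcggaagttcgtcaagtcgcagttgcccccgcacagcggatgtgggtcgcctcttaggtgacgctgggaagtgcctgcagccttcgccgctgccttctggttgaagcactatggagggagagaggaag
CCNT2: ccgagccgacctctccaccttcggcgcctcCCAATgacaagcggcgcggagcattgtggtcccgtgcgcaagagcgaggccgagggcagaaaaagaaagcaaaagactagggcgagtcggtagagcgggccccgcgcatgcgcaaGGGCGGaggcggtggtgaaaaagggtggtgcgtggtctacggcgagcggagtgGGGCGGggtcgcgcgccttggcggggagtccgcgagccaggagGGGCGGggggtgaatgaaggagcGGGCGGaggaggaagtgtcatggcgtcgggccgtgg

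In the HEXIM1 window the letters TATAAA ended 24 bases before the start, and no other gene of the group with a RefSeq entry held them. A TATAAA match was found in 11.5% of 35116 RefSeq promoter windows of the same length. For each gene of the group only the window at its RefSeq gene start was counted, whereas the percentages cover all windows. The GC box was found in all 6 genes with an entry, against 45.0% of all windows, and the CCAAT box in 5 of the 6, against 34.6%. CCNT1 held an E box, as did AFF4 (7.26% of all windows), and the ETS core (10.3%). A further MEPCE window, at another start, also held an E box. CCNT2 held 4 GC boxes and 1 CCAAT box and none of the other motifs. LARP7 held the cAMP response element (1.85%), and the AP-1 site (4.95%) was in none of the 6 windows. No searched letters were shared by HEXIM1 and CCNT1 and absent from CCNT2. These matches describe letters and not bound sites, and a missing match says nothing about a factor.

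HEXIM1 mRNA, which encodes the inhibitor of P-TEFb, fell with all 3 compounds, 1.71-fold with AB61, 1.67-fold with tubercidin and 1.56-fold with actinomycin D. CCNT1, the gene of the main cyclin partner of CDK9, fell 1.54-fold, 1.54-fold and 1.53-fold in the same order. No other gene of the group passed the test with any compound. These calls, on an adjusted p of 0.05, come from a limma fit over all 12 arrays that holds the replicate number of the labels as a block. None of them was kept when that block was left out, and those p-values are given beside each result.

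Control cultures had HEXIM1 levels of 8.28, 8.41 and 8.64 on the log2 scale. The AB61 arrays read 7.51, 7.57 and 7.92, the tubercidin arrays 7.51, 7.78 and 7.81, and the actinomycin D arrays 7.53, 7.76 and 8.12. All 9 treated arrays lay below all 3 control arrays, the highest treated array being the actinomycin D array of number 3. The group means were 8.44 ± 0.18 (SD, n = 3) in control, 7.67 ± 0.22 with AB61, 7.70 ± 0.17 with tubercidin and 7.81 ± 0.30 with actinomycin D.

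Arrays of one replicate number shared part of their HEXIM1 level. Averaged over the 4 groups, the arrays of number 1 had a mean of 7.71, those of number 2 a mean of 7.88 and those of number 3 a mean of 8.12. Set against the control of its own number, AB61 was lower by -0.77, -0.84 and -0.72. The corresponding differences were -0.77, -0.63 and -0.82 with tubercidin and -0.75, -0.65 and -0.51 with actinomycin D. These differences spread less than the levels themselves.

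With AB61 the fitted log2 fold change of HEXIM1 was -0.78 (SE 0.093, limma adjusted p = 0.00632, or 0.0768 without the block). With tubercidin it was -0.74 (SE 0.093, limma adjusted p = 0.00859, or 0.129 without the block). With actinomycin D it was -0.64 (SE 0.093, limma adjusted p = 0.0165, or 0.183 without the block). The 3 values share the same control arrays and are therefore not independent of each other. The loss of a call also followed from single arrays. Without control replicate 2 the limma adjusted p became 0.0650, 0.0705 and 0.106 in that order, at log2 fold changes of -0.78, -0.75 and -0.64. Over all genes the calls without that array numbered 4, 12 and 7, against 193, 116 and 130 with it, so the loss was not particular to HEXIM1. With tubercidin the call was also lost without tubercidin replicate 1 (adjusted p = 0.0730) or 3 (0.0956). With actinomycin D it was lost without control replicate 3 (0.0663) or without actinomycin D replicate 1 (0.0984), 2 (0.111) or 3 (0.0587). With the block in fits on 2 groups only the adjusted p was 0.0679, 0.0700 and 0.101. The call was lost in 5, 8 and 10 of the 24 alternative settings with AB61, tubercidin and actinomycin D, and the fitted value was below 0 in all of them. Settings that alter only the block, the variance model or arrays of the other compounds leave that value unchanged, so its sign was fixed there.

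**Figure D1:**
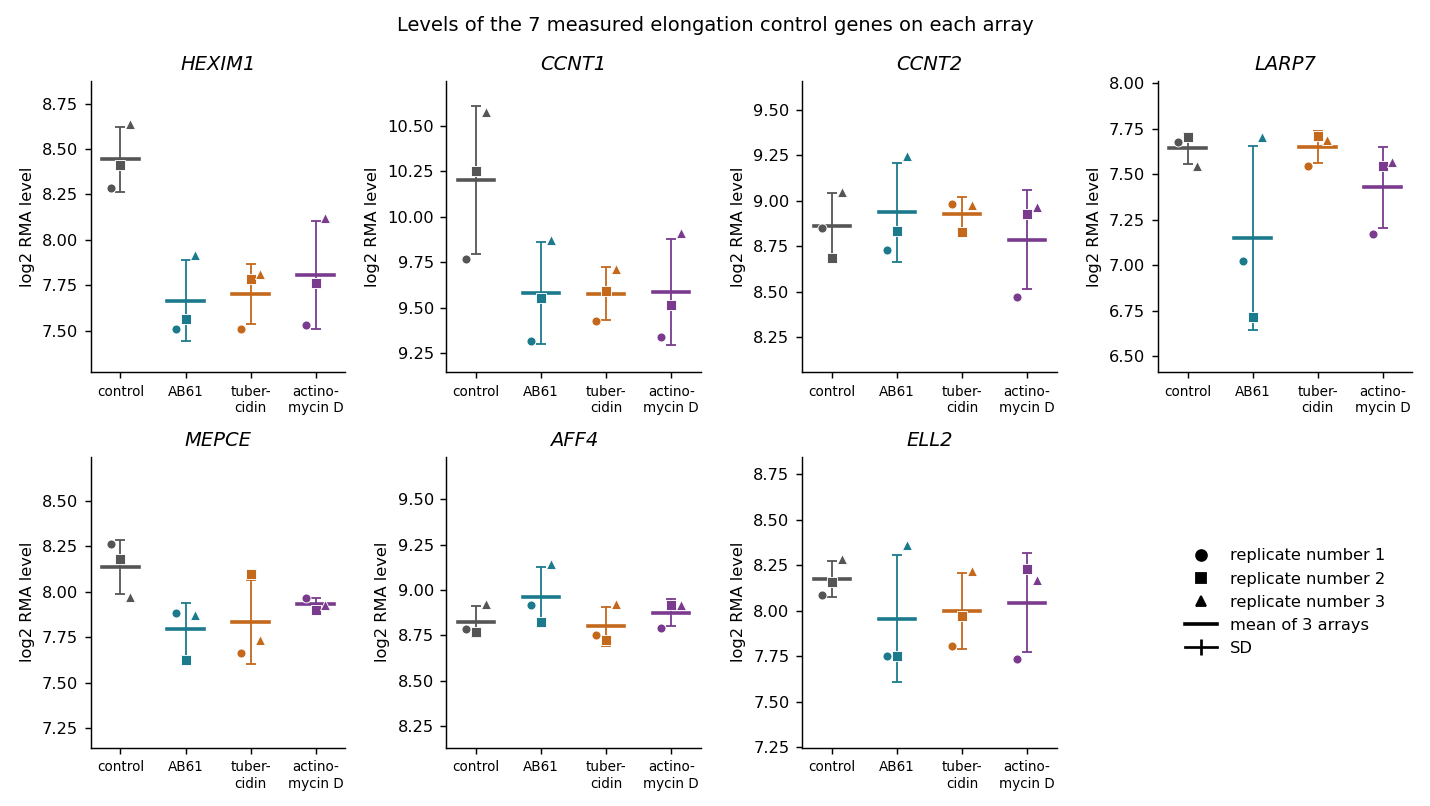
Log2 array level of each of the 7 genes (vertical axis) in control, AB61, tubercidin and actinomycin D cultures. Each point is 1 array, its symbol marks the replicate number, the horizontal bar is the group mean and the error bar is the SD. All 9 treated HEXIM1 arrays lie below the 3 controls, whereas the CCNT2 and AFF4 groups overlap.

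HEXIM2, the paralogue of HEXIM1 that can also inhibit P-TEFb, was looked up after its values had been seen. Its log2 fold changes were -0.01, 0.08 and -0.06 with AB61, tubercidin and actinomycin D, and none passed (limma adjusted p = 0.962, 0.846 and 0.925). Its 95% interval with AB61 ran from -0.22 to 0.20, while that of HEXIM1 ran from -0.98 to -0.57. The difference between the paralogues was not tested.

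Cyclin T1, the product of CCNT1, activates CDK9 and is a cyclin that HEXIM1 contacts. CCNT1 levels in control were 9.77, 10.25 and 10.58. With AB61 they were 9.31, 9.55 and 9.87, with tubercidin 9.43, 9.59 and 9.71, and with actinomycin D 9.34, 9.51 and 9.91. All tubercidin arrays lay below all controls, whereas the AB61 and actinomycin D arrays of number 3 lay above control 1. Every treated array lay below the control of its own number.

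The control group of CCNT1 was wide, with a mean of 10.20 ± 0.41 (SD, n = 3), against 9.58 ± 0.28 with AB61, 9.58 ± 0.14 with tubercidin and 9.59 ± 0.29 with actinomycin D. Over the 4 groups the arrays of numbers 1, 2 and 3 had CCNT1 means of 9.46, 9.73 and 10.02. The differences from the control of the same number were -0.45, -0.70 and -0.71 with AB61. They were -0.34, -0.66 and -0.86 with tubercidin and -0.43, -0.74 and -0.67 with actinomycin D.

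The fitted log2 fold change of CCNT1 was -0.62 with AB61 (SE 0.10, limma adjusted p = 0.0199, or 0.246 without the block). With tubercidin it was -0.62 (limma adjusted p = 0.0230, or 0.325 without the block), and with actinomycin D -0.61 (limma adjusted p = 0.0263, or 0.332 without the block). Leaving out control replicate 2 ended all 3 calls, with adjusted p = 0.131, 0.153 and 0.157, and so did leaving out control replicate 3, with 0.0884, 0.137 and 0.119. The call also ended without AB61 replicate 1 (0.0751) or 2 (0.0899), and without any 1 of the tubercidin arrays (0.0574 to 0.136) or any 1 of the actinomycin D arrays (0.107 to 0.168). With the number as a random block the adjusted p was 0.0772, 0.0957 and 0.0987, and with the block in fits on 2 groups only it was 0.101, 0.106 and 0.113. The call was thus lost in 10, 11 and 11 of the 24 alternative settings, and the fitted value was below 0 in all of them. As for HEXIM1, many of these settings cannot change that value.

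CCNT2 encodes the other T-type cyclin, cyclin T2, which also forms P-TEFb with CDK9. Its control arrays read 8.85, 8.69 and 9.05, the AB61 arrays 8.73, 8.84 and 9.25, the tubercidin arrays 8.99, 8.83 and 8.98, and the actinomycin D arrays 8.47, 8.93 and 8.96. The groups overlapped throughout. The log2 fold changes were 0.07, 0.07 and -0.08 (SE 0.13), with limma adjusted p = 0.799, 0.907 and 0.933. With AB61 the 95% interval ran from -0.21 to 0.36 for CCNT2 and from -0.84 to -0.39 for CCNT1, and the difference between the cyclin genes was not tested.

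**Figure D2:**
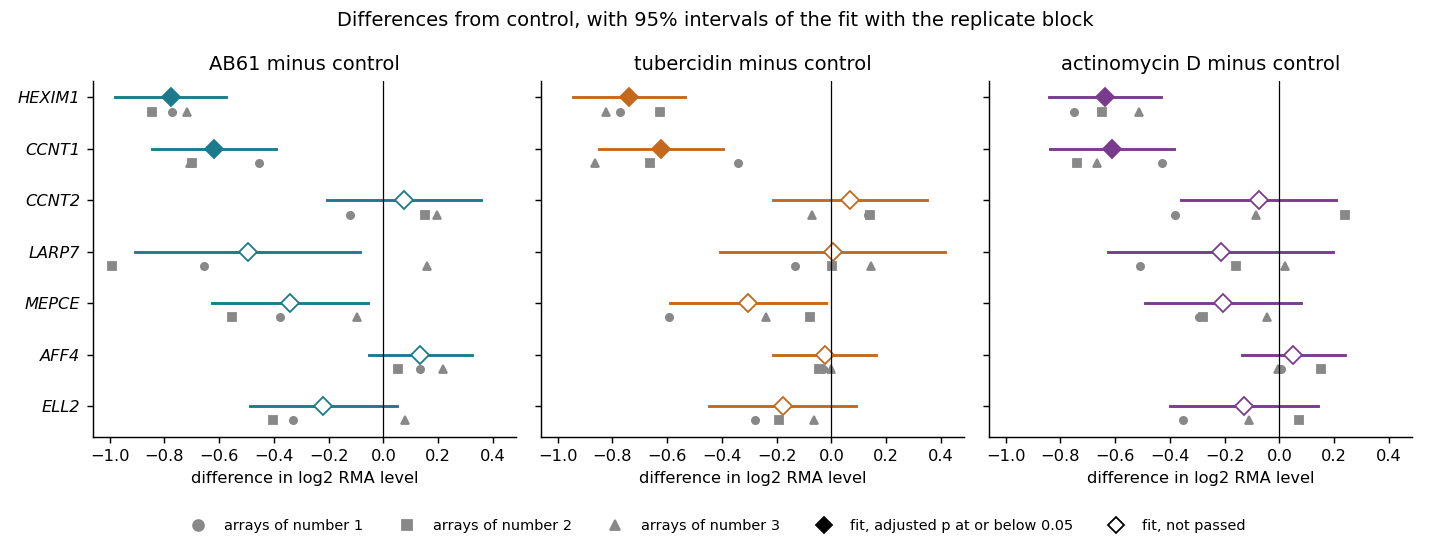
Log2 fold change against control (horizontal axis) of the 7 genes for AB61, tubercidin and actinomycin D. Diamonds are fitted values (filled where passed), lines are 95% intervals from the limma fit with the replicate block, and grey symbols are differences from the control of the same number. The intervals of HEXIM1 and CCNT1 lie below 0 with all 3 compounds, and those of CCNT2, AFF4 and ELL2 include 0. Those of MEPCE with AB61 and tubercidin and of LARP7 with AB61 also lie below 0, although neither gene passed.

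LARP7, the protein that binds and protects the end of 7SK RNA, had control levels of 7.68, 7.71 and 7.55. The tubercidin arrays overlapped them, at 7.55, 7.71 and 7.69. With AB61 the arrays were far apart, at 7.02, 6.71 and 7.71, and the actinomycin D arrays read 7.17, 7.55 and 7.57. With AB61, 2 arrays lay below every control array and the array of number 3 lay above all 3, reading the same as control 2 at 2 decimals.

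The log2 fold change of LARP7 was -0.50 with AB61 (SE 0.19, limma adjusted p = 0.216). It was 0.0046 with tubercidin (adjusted p = 0.997) and -0.22 with actinomycin D (adjusted p = 0.768). Without AB61 replicate 3 the value with AB61 was -0.76 and passed (limma adjusted p = 0.0391). Without AB61 replicate 2 it was -0.24 (limma adjusted p = 0.633), so the size of the LARP7 difference and its call rest on single AB61 arrays.

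MEPCE, the enzyme that caps 7SK RNA, had control levels of 8.26, 8.18 and 7.97. The AB61 arrays read 7.88, 7.63 and 7.87, the tubercidin arrays 7.67, 8.10 and 7.73, and the actinomycin D arrays 7.97, 7.90 and 7.93. All AB61 and all actinomycin D arrays lay below all controls, the highest actinomycin D array reading the same as the lowest control at 2 decimals, while tubercidin array 2 lay above control 3. The log2 fold changes were -0.34, -0.30 and -0.21 with AB61, tubercidin and actinomycin D (SE 0.13), and none passed (limma adjusted p = 0.217, 0.353 and 0.594).

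AFF4, the scaffold of the super elongation complex, had control levels of 8.78, 8.77 and 8.92. Treated arrays lay between 8.72 and 9.14, and the groups overlapped. The log2 fold changes were 0.14, -0.03 and 0.05 (SE 0.085), with limma adjusted p = 0.457, 0.952 and 0.933.

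ELL2, which raises the rate of elongation within that complex, had control levels of 8.08, 8.16 and 8.28. The AB61 arrays read 7.75, 7.75 and 8.36, the tubercidin arrays 7.80, 7.97 and 8.22, and the actinomycin D arrays 7.73, 8.23 and 8.17. In each treated group at least 1 array lay above the lowest control. The log2 fold changes were -0.22, -0.18 and -0.13 (SE 0.12), and none passed (limma adjusted p = 0.399, 0.653 and 0.800).

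Counted together, 2 of the 7 genes fell with each compound and none rose. Of all 14232 genes, 0.745% fell with AB61, 0.351% with tubercidin and 0.45% with actinomycin D. In either direction the shares called were 1.36%, 0.815% and 0.913%. All 3 treated arrays lay below all 3 controls for 2 of the 7 genes with each compound, HEXIM1 in every case, joined by MEPCE with AB61 and actinomycin D and by CCNT1 with tubercidin. Over all genes this complete separation downward held for 6.18%, 6.58% and 7.22%. The median log2 fold change of the 7 genes was -0.34, -0.18 and -0.21, beside 0.04, -0.02 and 0.0024 over all genes. In the fit without the block the 7 genes gave 0 calls with each compound.

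The compounds were then compared with each other, at the same multiple of their IC50 and the same time but at different molar doses, in 21 pairs over the 7 genes. No pair passed, with p-values adjusted over all genes of each contrast. Over all genes the share called was 0% for AB61 against tubercidin, 0% for AB61 against actinomycin D and 0.00703% for tubercidin against actinomycin D. At an unadjusted p under 0.05 there were 1190, 450 and 321 genes in these contrasts, of which 1, 0 and 0 were among the 7. The fit without the block called 0 genes in all 3 contrasts, and the fit with array weights called 9, 5 and 3.

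AB61 and tubercidin, which differ by the thienyl group, gave HEXIM1 levels that differed by -0.04 on the log2 scale, with a 95% interval from -0.24 to 0.17. For CCNT1 the difference was 0.0026, with an interval from -0.22 to 0.23. The intervals therefore do not exclude differences of that size in either direction. For AB61 against actinomycin D the HEXIM1 difference was -0.14 (-0.34 to 0.06), and for tubercidin against actinomycin D it was -0.10 (-0.31 to 0.10). The CCNT1 differences were -0.0070 (-0.23 to 0.22) and -0.0097 (-0.24 to 0.22).

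LARP7 had the largest difference between AB61 and tubercidin among the 7 genes, with AB61 lower by -0.50 (95% interval -0.91 to -0.09, limma adjusted p = 0.585). Its AB61 arrays were the widespread ones described above. The gene that did pass between tubercidin and actinomycin D was CHAC1, an enzyme of glutathione breakdown. It was higher with tubercidin than with actinomycin D by 1.17 (SE 0.13, limma adjusted p = 0.0355, or 0.853 without the block). Against control, CHAC1 was lower with actinomycin D (-1.37, limma adjusted p = 0.00286, or 0.0345 without the block). It was also lower with AB61 (-1.05, limma adjusted p = 0.00808, or 0.0621 without the block). With tubercidin it was -0.20 and did not pass (limma adjusted p = 0.647, or 0.934 without the block). CHAC1 is not an elongation gene and was named after its value was seen.

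A wider list of 41 elongation genes outside the group was examined, of which 27 had a single-symbol probe set. None of the 27 passed with any compound. At an unadjusted p under 0.05 the counts were 6, 5 and 3 with AB61, tubercidin and actinomycin D. Over all 14232 genes they were 2347, 1809 and 1875. For the 27 genes the lowest limma adjusted p were 0.147, 0.230 and 0.165. Their medians of -0.07, -0.0028 and -0.06 lay closer to 0 than those of the 7 genes. Without the block 0 of the 27 passed with each compound.

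Within each functional list the gene with the largest change in any treatment is given. Among other P-TEFb and 7SK genes (4 of 6 measured) this was JMJD6, an oxygenase reported to act on 7SK RNA, with -0.52 with AB61 (SE 0.16, limma adjusted p = 0.147). Its control arrays read 7.57, 7.83 and 8.09, and its AB61 arrays 7.49, 7.08 and 7.35, all below the lowest control. Its values with tubercidin and actinomycin D were -0.35 and -0.45. The 4 measured genes of its list had medians of -0.30, -0.30 and -0.25 with AB61, tubercidin and actinomycin D. In the PAF1 complex and SPT6 list (7 of 7 measured) LEO1, a PAF1 complex subunit, had -0.33 with AB61 (SE 0.11, adjusted p = 0.183). Among other transcription kinases and cyclins (5 of 8) CCNC, the Mediator cyclin, had -0.33 with AB61 (SE 0.22, adjusted p = 0.470).

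Among the other super elongation complex genes (4 of 7) MLLT3, a chromatin reader, had -0.19 with AB61 (SE 0.14, limma adjusted p = 0.516). In the DSIF and NELF list (3 of 6) SUPT4H1, the small DSIF subunit, had 0.28 with tubercidin (SE 0.12, adjusted p = 0.347). In the list of elongin, TFIIS and the little elongation complex (4 of 7) ELOB, an elongin subunit, had 0.26 with tubercidin (SE 0.12, adjusted p = 0.378). None of these 6 genes passed.

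**Figure D3:**
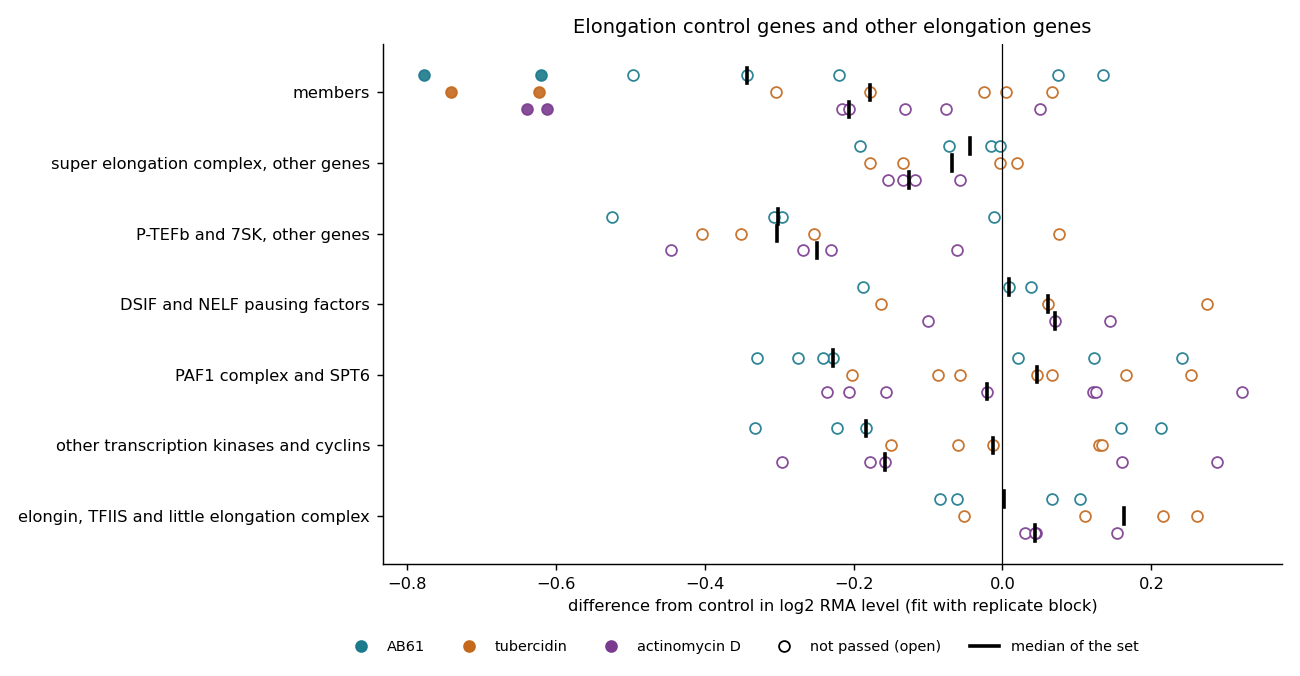
Log2 fold change against control (horizontal axis) of the 7 genes (the row named members) and of the 27 other measured elongation genes by list, for the 3 compounds. Each circle is 1 gene, filled where it passed an adjusted p of 0.05, and black bars are medians. HEXIM1 and CCNT1 are filled with each compound, and none of the 27 other genes is.

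Over the 12 arrays, after subtraction of each replicate number's mean, the genes whose level was most like that of HEXIM1 were NRN1, RDH11 and RGS2, with Pearson's r of 0.965, 0.958 and 0.956. These points share arrays and groups, so the correlations are descriptions of 12 arrays in 4 groups. HEXIM1 differed mainly between control and treated arrays, so genes picked in this way tend to show the same step. That such genes fell is therefore not a separate result. NRN1, which encodes the neurite growth factor neuritin, fell, with log2 fold changes of -1.08, -0.948 and -0.997 with AB61, tubercidin and actinomycin D (limma adjusted p = 0.00357, 0.00417 and 0.00286, or 0.277, 0.455 and 0.408 without the block). RGS2, a regulator of G protein signalling, fell, with -1.36, -1.30 and -1.38 (adjusted p = 0.0114, 0.0166 and 0.0135, or 0.158, 0.227 and 0.193 without the block). RDH11, a retinol dehydrogenase, had -0.23, -0.17 and -0.16 and did not pass. CCNT1 was gene 18 in this order with an r of 0.940, MEPCE gene 397 with 0.788, and CCNT2 had -0.08. ELL2 had an r of 0.598, LARP7 one of 0.452 and AFF4 one of -0.317.

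The authors' deposited table gives, for HEXIM1, the same log2 fold changes of -0.78, -0.74 and -0.64 with unadjusted p-values of 0.00292, 0.00408 and 0.0104 for AB61, tubercidin and actinomycin D. For CCNT1 the authors' deposited table gives -0.62, -0.62 and -0.61 with unadjusted p-values of 0.0103, 0.0100 and 0.0110. By p-value, HEXIM1 held rank 309, 267 and 528 of 22011 probe sets in the authors' deposited table. In the blocked limma fit it held rank 9, 11 and 22 of 14232 genes.

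**Figure D4:**
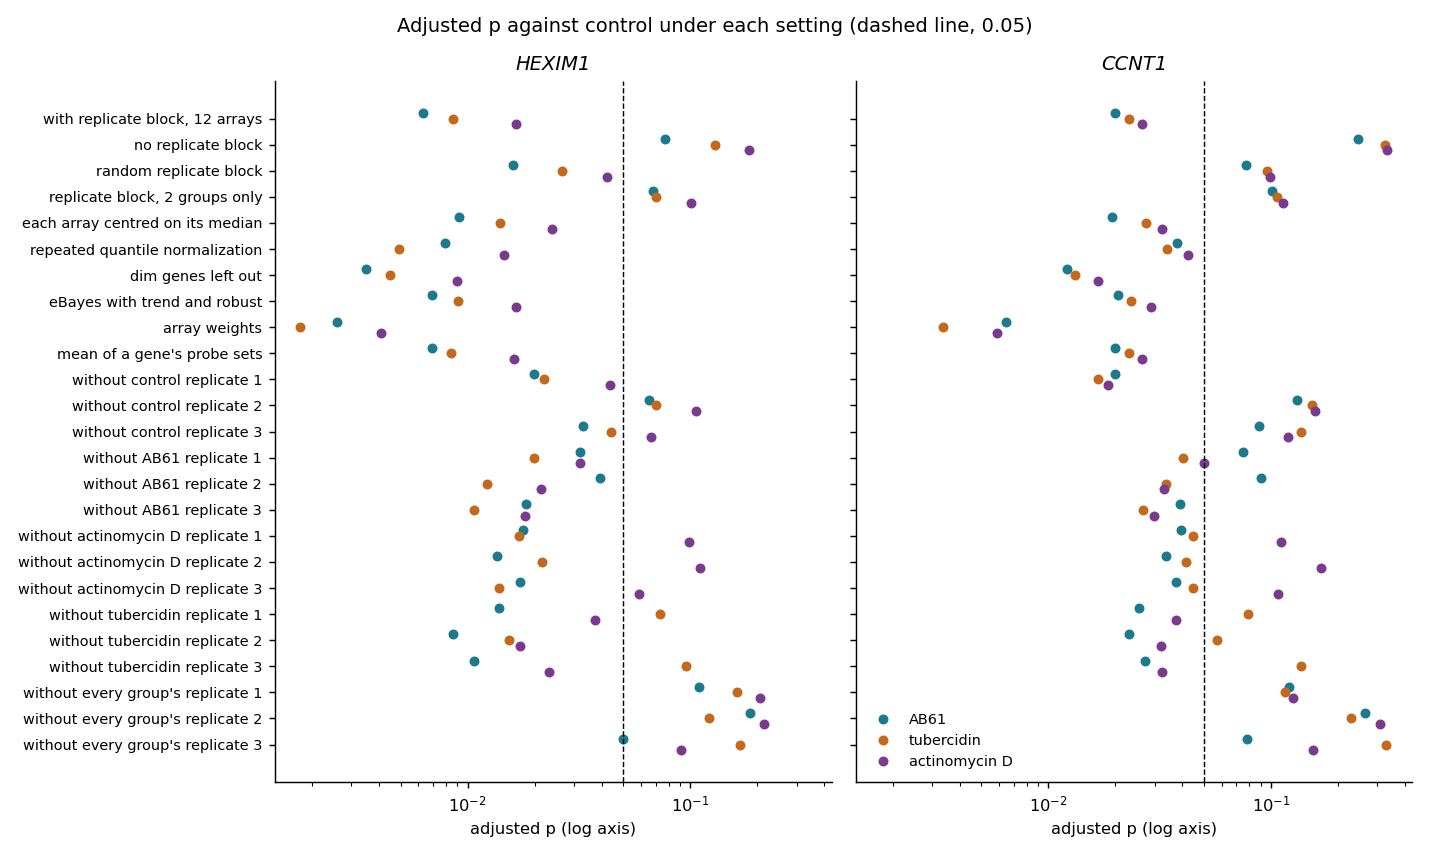
Limma adjusted p (horizontal log axis) of HEXIM1 and CCNT1 for each compound against control, under the main fit and the 24 alternative settings. Each point is 1 setting and the dashed line is the threshold of 0.05. Of the 24 alternatives, HEXIM1 lies to the right of the line in 5 with AB61, 8 with tubercidin and 10 with actinomycin D, and CCNT1 in 10, 11 and 11.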

How the data were processed

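RNA of CCRF-CEM cultures was measured on 12 whole-transcript arrays, 4 groups of 3 given by the labels. Per the labels' protocols, total RNA came from a Trizol extraction. RMA, oligo and limma are named, without versions, per the submitters' processing notes. The deposited values are log2 levels per probe set (22011 per array). Comparison tables by the authors list group means, called intensity in the file headers although their values are on the log2 scale, with log2 fold changes and unadjusted p-values.

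Probe sets with exactly 1 symbol in the platform annotation were used (14432, against 2408 with several and 5171 with none), the brightest for the 197 genes that had several. No filter on dim genes was applied, as no background values were used here. Models were fitted to 14232 genes in limma 3.58.1 under R 4.3.3, with terms for group and replicate number (6 residual and 4.97 prior degrees of freedom). Two-sided p-values of 6 contrasts were adjusted by the Benjamini-Hochberg method over all genes, with a threshold of 0.05. Figures and tables were made in Python 3.11.15.

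The replicate number was checked as a pairing by correlating the deviations from group means of same-numbered arrays. The correlations ran from -0.194 to 0.596, and 13 of 18 were over 0.1. For AB61 and control all were (lowest 0.158), and for 11 of 12 arrays the highest correlation was with a same-numbered array. The data therefore bear out the block for AB61 and control, and less clearly for the other groups, and adjusted p-values without it stand beside the calls of that fit. What the number marks is not stated in the labels.

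The genes, lists and tests were chosen with earlier results of these data known. All listed genes were named, then, of the wider list, any gene past the threshold and the largest change per functional list, and the 3 genes most like HEXIM1. HEXIM2, PPM1G and CHAC1 were named after their values were seen. Nothing beyond the word biological in the labels says that replicates came from separate cultures, so the p-values measure the spread between these arrays, whose number limits the precision. The fit was tested on simulated data that were given an additive effect of the replicate number. That test therefore cannot say whether the block is right for these arrays. Promoter windows came from RefSeq for the 6 genes with an entry. Alternatives covered the block, samples in the fit, scaling, dim genes, variance model, array weights, probe set choice and left-out arrays.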

Additional observations from a re-analysis of the deposited data

How the results depend on the processing

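HEXIM1 and CCNT1 were below control with each compound in all 24 alternatives. In many of these the fitted value could not change, so its sign there was fixed in advance. These were settings that alter only the block, the variance model, dim genes, the probe set choice or arrays of the other compounds. HEXIM1 ranged from -0.81 to -0.73 with AB61 (limma adjusted p 0.00258 to 0.185), from -0.81 to -0.67 with tubercidin (0.00177 to 0.167) and from -0.70 to -0.58 with actinomycin D (0.00410 to 0.214). CCNT1 ranged from -0.72 to -0.56 (0.00644 to 0.264), -0.76 to -0.50 (0.00337 to 0.327) and -0.72 to -0.55 (0.00586 to 0.332). The number of the 7 genes called with each compound was 0 without the replicate block, 1 with the number as a random block (CCNT1 lost its call) and 0 with the block in fits on 2 groups only, which have fewer arrays. All genes called with AB61, tubercidin and actinomycin D were 24, 13 and 17 without the replicate block, 11, 11 and 9 with 2 groups only, and 842, 575 and 580 with array weights, whose estimation gave a convergence warning. With array weights 1 other elongation gene passed with AB61 (LEO1) and 1 with tubercidin (PPM1G). Between AB61 and tubercidin 4 genes passed after repeated quantile normalization, 2 without dim genes and 9 with array weights. Between AB61 and actinomycin D 5 passed with array weights. Between tubercidin and actinomycin D 3 passed with array weights and 0 without the block, with the random block or with 2 groups only. Values near 0 changed sign. LARP7 with tubercidin against control became -0.0043 (quantile) and -0.042 (weights). Between AB61 and tubercidin, HEXIM1 became 0.0034 (quantile) and 0.066 (weights), CCNT1 -0.033 (arrays centred on the median), CCNT2 -0.029 (median) and MEPCE 0.033 (weights). CCNT1 became 0.022 between AB61 and actinomycin D (quantile) and 0.0020 between tubercidin and actinomycin D (median). The cause was not tested.

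Arrays were also left out, singly or, as settings chosen after seeing the data, by replicate number in every group. The genes called among the 7 then numbered 0 to 3 with AB61, 0 to 2 with tubercidin and 0 to 2 with actinomycin D, and over all genes 0 to 285, 0 to 144 and 0 to 157. Against control, CCNT2 ranged from -0.011 to 0.17, -0.049 to 0.16 and -0.23 to 0.077, LARP7 with AB61 from -0.82 to -0.24 and with tubercidin from -0.17 to 0.10 and AFF4 with actinomycin D from -0.016 to 0.096. Between AB61 and tubercidin the ranges were -0.11 to 0.054 for HEXIM1, -0.094 to 0.085 for CCNT1, -0.12 to 0.14 for CCNT2, -0.17 to 0.18 for MEPCE and -0.17 to 0.083 for ELL2, with 0 to 1 genes called. Between AB61 and actinomycin D they were -0.051 to 0.020 for CCNT1 and -0.23 to 0.10 for ELL2. Between tubercidin and actinomycin D they were -0.17 to 0.00086 for HEXIM1, -0.092 to 0.087 for CCNT1, -0.042 to 0.28 for CCNT2, -0.26 to 0.027 for MEPCE and -0.12 to 0.087 for ELL2, with 0 to 1 genes called.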
